A study of Saccharomyces cerevisiae with 6 samples.

Results

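Genes for 10 amino acid permeases of budding yeast are described here: BAP2 (YBR068C), BAP3 (YDR046C), TAT1 (YBR069C), TAT2 (YOL020W), GNP1 (YDR508C), AGP1 (YCL025C), AGP3 (YFL055W), DIP5 (YPL265W), CAN1 (YEL063C) and LYP1 (YNL268W). They were chosen by name, as permeases controlled by the Ssy1-Ptr3-Ssy5 sensor of external amino acids and related amino acid permeases, and each was matched to the symbol in the annotation of the array's probes. All 10 were found, each with 1 probe, among 5560 named genes and 6210 probes. A value on every array was held by 9 of them, and BAP3 lacked a value on 1 array. The study compared pairs of poly(A) RNA samples from wild-type Saccharomyces cerevisiae S288c, the reference laboratory strain, on 6 two-channel arrays. On 2 arrays cells in MDN medium with rapamycin were set against untreated cells in MDN, and on 2 more the same was done in YPD, the standard rich medium of yeast extract, peptone and dextrose. Of the others, 1 array set cells in MDN against cells in YPD and 1 set cells in MDN against cells in SCD. What MDN and SCD contain is not spelled out in the labels, which also state no dose, treatment time or number of cultures.

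Yeast takes up amino acids through a family of plasma membrane permeases that differ in their substrates. The receptor Ssy1, itself a permease-like protein that does not transport, senses amino acids outside the cell and, with Ptr3, activates the protease Ssy5. Ssy5 trims the latent transcription factors Stp1 and Stp2, which then enter the nucleus and induce permease genes such as BAP2, BAP3, TAT1, TAT2, GNP1, AGP1 and DIP5, and the peptide transporter gene PTR2. A separate control, nitrogen catabolite repression, holds down permeases such as GAP1 on good nitrogen sources through the GATA factors. Rapamycin, in complex with Fpr1, blocks TOR complex 1, a kinase that couples growth to nutrient supply and restrains part of the GATA response.

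Values are log2 ratios as deposited, read as rapamycin over untreated and as MDN over the other medium, since Cy5 marked the drug-treated or MDN sample throughout. No source states this direction, which is only the likely one, and every sign would turn over together if the ratio ran the other way. Each array held values for 5834 to 6121 probes, with a median log2 ratio of -0.09 to 0.07. The correlation of replicate arrays over probes, which are not independent, was 0.966 in MDN and 0.950 in YPD. Ratios were kept to steps of 0.01, so a very low ratio is known only within a range. Whether the 2 arrays of a medium stem from different cultures is not given. The p-values here reflect only the spread between replicate arrays, which may be technical. In the fit on all 4 rapamycin arrays this spread was pooled over both media and moderated with that of all features. In bulk RNA, fewer cells of a kind and less transcript per cell cannot be told apart. No dyes were swapped, so a dye effect of a probe stays in every ratio and cancels only in differences between arrays.

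Growth in MDN set the 10 permeases apart into a group of 7 with much lower transcript than in either other medium and a group of 3 that stayed near 0. On the MDN over YPD array 7 of the 10 were at least 2-fold lower and none was at least 2-fold higher. Over all features, that is genes and unnamed probes, on that array 5.89% were at least 2-fold off, 1.96% lower and 3.93% higher. The same 7 genes were at least 2-fold lower on the MDN over SCD array, where 3.37% of all features were at least 2-fold off, 0.983% lower and 2.39% higher. The median of the 10 genes was -2.17 against YPD and -2.40 against SCD, against -0.06 and -0.09 over all features. Each comparison rests on 1 array and has no replicate check, so no test was made.

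The permeases for branched-chain and aromatic amino acids had the lowest ratios of the 10 on the MDN over YPD array; on the MDN over SCD array TAT2 tied with GNP1. BAP3, which imports leucine, isoleucine, valine and cysteine, was at -5.06 against YPD and -5.64 against SCD. On the MDN over YPD array no other named gene of 5472 had a ratio as low, and on the MDN over SCD array BAP3 was at place 2 from the bottom of 5347. These are ratios of 0.03 and 0.02, so rounding alone allows log2 values of -5.32 to -4.84 and of -6.06 to -5.32. BAP2, the main leucine, isoleucine and valine permease, was at -4.06 against YPD, 16.7-fold lower in MDN, and at -4.32 against SCD. TAT1, which carries tyrosine as well as branched-chain amino acids, was also at -4.06 against YPD and at -3.06 against SCD. TAT2, the high-affinity tryptophan permease, was at -3.06 against YPD and -2.47 against SCD. In these 4 genes the ratio against YPD thus lay between -5.06 and -3.06.

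The permeases for amides and acidic amino acids were lower in MDN by smaller amounts against YPD, while against SCD GNP1 had the same ratio as TAT2. GNP1, the high-affinity glutamine permease, was at -2.56 against YPD and -2.47 against SCD. AGP1, a broad low-affinity permease for asparagine, glutamine and many other amino acids, was at -1.79 against YPD and -2.32 against SCD. DIP5, the glutamate and aspartate permease, was at -1.60 against YPD and -1.69 against SCD, 3.03-fold and 3.23-fold lower in MDN. DIP5 was the least reduced of the 7, and still only 26 of 5472 named genes had a ratio as low or lower against YPD, 7 of them these permeases. Against SCD the number was 23 of 5347, again with 7 of them these permeases.

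**Figure D1:**
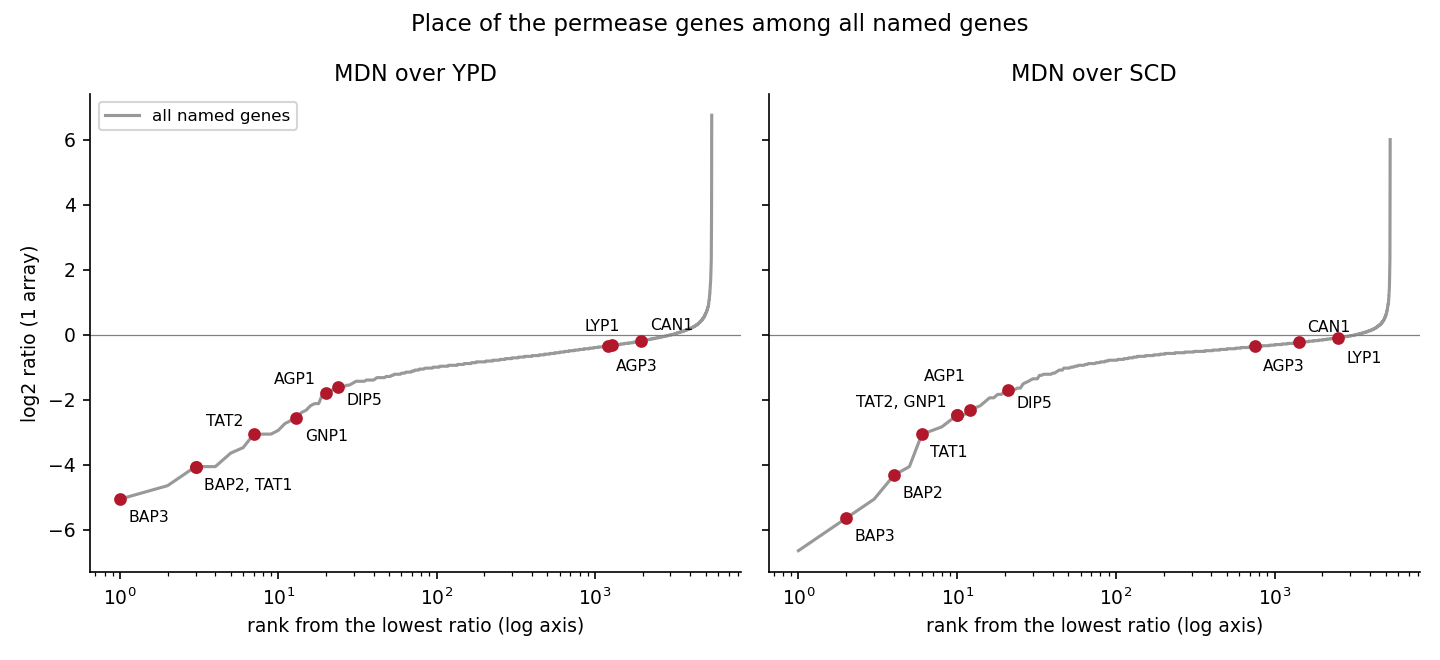
Log2 ratio (y axis, 1 array per panel) against rank from the lowest ratio (x axis, log scale) for all named genes, with the 10 permease genes as red points, for MDN over YPD (left) and MDN over SCD (right). BAP3 at -5.06 and -5.64 lies at the low end, DIP5 at -1.60 and -1.69 closes the group of 7, and AGP3, CAN1 and LYP1 lie between -0.36 and -0.09.

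The permeases for basic amino acids and AGP3 did not share this pattern. CAN1, the arginine permease, was at -0.18 against YPD and -0.23 against SCD. LYP1, the lysine permease, was at -0.32 and -0.09. AGP3, a low-affinity permease able to carry several amino acids, was at -0.34 and -0.36. Induction by external amino acids was not measured, since the contents of MDN and SCD are not stated, and the arrays show only that 7 of the 10 had low ratios in MDN and 3 did not.

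Between SCD and YPD the permeases differed little. The difference of the medium arrays gives SCD over YPD, provided that the MDN samples of both arrays were alike, and on it the median of the 10 genes was 0.03, against 0.01 over all features. TAT1 alone reached 2-fold, at -1.0, where 4.9% of all features did so, 2.15% lower and 2.75% higher. BAP3 stood at 0.59 and TAT2 at -0.58. The TAT1 call rests on 2 rounded ratios and on the scaling. With arrays brought to equal scale TAT1 no longer reached 2-fold, while BAP2, BAP3 and AGP1 did, all on the higher side. That scaling multiplies each array by its own factor, which shifts this difference most for genes far from 0 on both arrays. Higher transcript in SCD cannot be read from these calls, and the share of all features at that scale was not counted. At a log2 threshold of 1.5, none of the 10 was called.

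**Figure D2:**
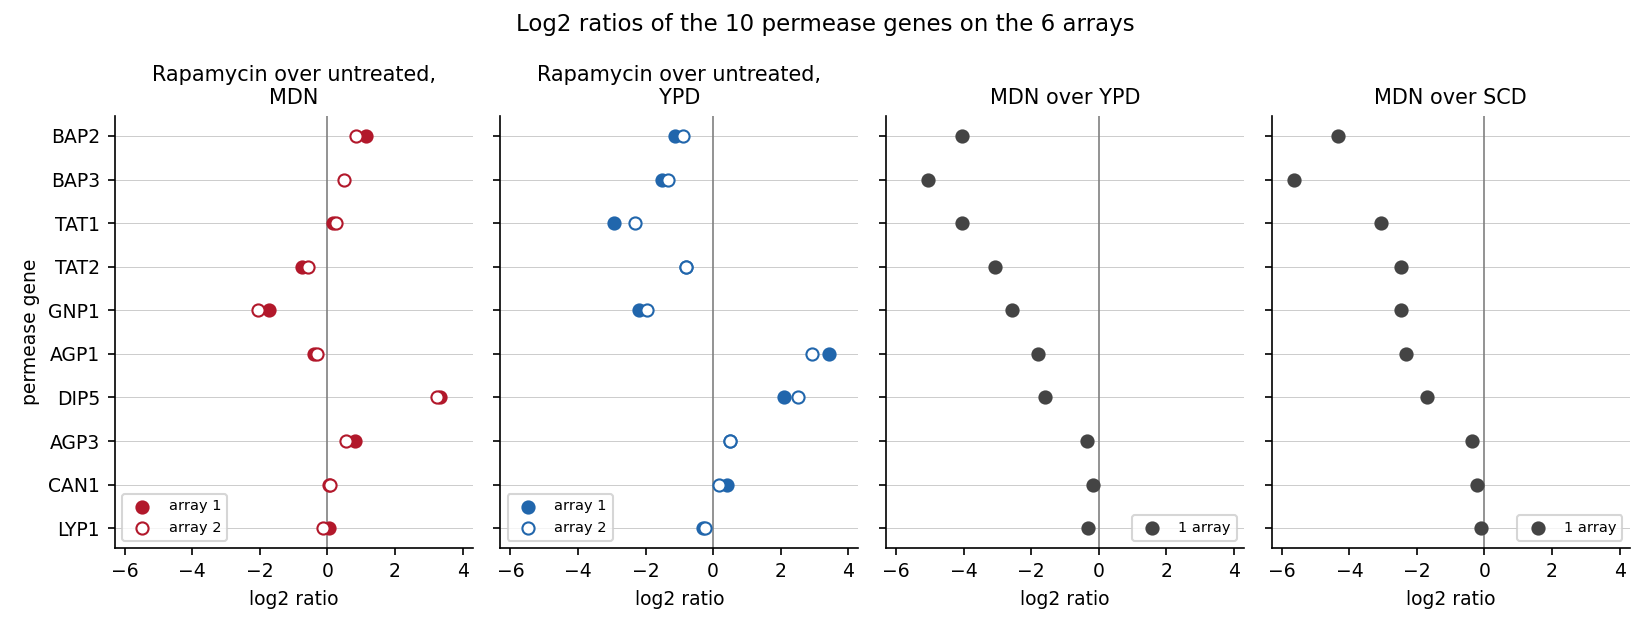
Log2 ratio (x axis) of the 10 permease genes (rows) for rapamycin over untreated in MDN and in YPD (filled points array 1, open points array 2) and for MDN over YPD and MDN over SCD (1 array each). The 7 upper genes are below -1.5 on both medium arrays, and only DIP5 is above 2 with rapamycin in both media.

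Rapamycin in MDN, the medium that the study's title names, raised DIP5, BAP2 and AGP3 and lowered GNP1 and TAT2. By limma with Benjamini-Hochberg adjustment over 5488 genes and unnamed probes, 5 of the 9 permeases with values on all 4 rapamycin arrays passed, 3 higher and 2 lower. Over all features 54.1% passed, 30.8% higher and 23.3% lower, so the share among the permeases was near the background. The median of the 9 was 0.06, the same as that of all features. Errors after ± are standard errors of this fit with n = 2 arrays per medium and a spread pooled over both media.

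DIP5 stood at 3.33 and 3.23 on the MDN arrays, 9.71-fold higher with rapamycin (3.28 ± 0.12, adjusted p = 7.46e-05). On array 1 only 6 named genes had a higher ratio, and on array 2 only 4. BAP2 was at 1.13 and 0.86 (0.99 ± 0.11, adjusted p = 0.00187), and AGP3 at 0.82 and 0.54 (0.68 ± 0.10, adjusted p = 0.00434). GNP1 was at -1.74 and -2.06, 3.73-fold lower with rapamycin (-1.90 ± 0.12, adjusted p = 0.000318), and TAT2 at -0.76 and -0.58 (-0.67 ± 0.09, adjusted p = 0.00294). For each of these 5 genes both arrays lay on the same side of 0, and the gap between its arrays was at most 0.32. The change in DIP5 was opposite in sign to that of GNP1, although both were lower in MDN than in YPD.

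The remaining permeases did not pass in MDN. AGP1 was at -0.40 and -0.30 (adjusted p = 0.0805), and it passed as lower under median centring (-0.41, adjusted p = 0.0417) and at equal array scale (adjusted p = 0.0270). TAT1 was at 0.18 and 0.24 (adjusted p = 0.315). CAN1 at 0.06 and 0.07 and LYP1 at 0.04 and -0.12 were near 0, with 95% intervals of -0.18 to 0.30 and -0.26 to 0.18. BAP3 had a value on array 2 only, 0.49, and was not in the fit; in a fit that accepted 1 array per medium its adjusted p was 0.0549. Calls in MDN rested on both arrays for some genes. BAP2 and TAT2 did not pass without MDN array 1 (adjusted p = 0.0690 and 0.0718) or without MDN array 2 (adjusted p = 0.0509 and 0.0523), and AGP3 did not pass without MDN array 1 (adjusted p = 0.0774). DIP5 and GNP1 passed with any 1 of the 4 arrays left out. AGP1 passed as lower without either YPD array (adjusted p = 0.0398 in each case).

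Rapamycin in YPD split the same permeases widely, with AGP1 and DIP5 strongly higher and TAT1, GNP1, BAP2 and TAT2 lower. All 9 permeases in the fit passed, 4 higher and 5 lower, where 66.3% of all features passed, 34.3% higher and 32.0% lower. Their median was -0.26, against 0.01 for all features.

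Among the permeases for branched-chain and aromatic amino acids, TAT1 was at -2.94 and -2.32, 6.2-fold lower with rapamycin (-2.63 ± 0.16, adjusted p = 0.000166). BAP2 was at -1.12 and -0.89 (-1.0 ± 0.11, adjusted p = 0.00112), and TAT2 at -0.81 on both arrays (-0.81 ± 0.09, adjusted p = 0.00100). BAP3 was at -1.51 and -1.32, and in the fit that accepted 1 array per medium it passed as lower (-1.42 ± 0.10, adjusted p = 0.00119). All 4 of these genes were thus below 0 on both YPD arrays.

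The amide permeases went opposite ways in YPD. AGP1 was at 3.42 and 2.93, 9.02-fold higher with rapamycin (3.17 ± 0.13, adjusted p = 6.51e-05), and GNP1 was at -2.18 and -1.94, 4.18-fold lower (-2.06 ± 0.12, adjusted p = 0.000142). DIP5 was at 2.09 and 2.51, 4.94-fold higher (2.30 ± 0.12, adjusted p = 0.000119). AGP3 was at 0.50 and 0.51 (0.50 ± 0.10, adjusted p = 0.00857). The basic amino acid permeases passed narrowly, CAN1 at 0.40 and 0.16 (0.28 ± 0.09, adjusted p = 0.0440) and LYP1 at -0.29 and -0.23 (-0.26 ± 0.08, adjusted p = 0.0433). At equal array scale the largest log2 values were smaller in size and stayed called. They were 2.33 for AGP1 (adjusted p = 2.52e-05), -1.94 for TAT1 (adjusted p = 6.54e-05) and 1.70 for DIP5 (adjusted p = 7.21e-05).

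CAN1 and LYP1 did not pass at equal array scale (adjusted p = 0.0595 and 0.0712) or without either MDN array (adjusted p = 0.115 and 0.0743). Without YPD array 1 CAN1 was at 0.16 (adjusted p = 0.137) and LYP1 at -0.23 (adjusted p = 0.174). Without YPD array 2 CAN1 passed at 0.40 (adjusted p = 0.0391) and LYP1 did not (adjusted p = 0.128). AGP3 did not pass without either YPD array (adjusted p = 0.109 in each case). The other 6 permeases in the fit passed with any 1 of the 4 arrays left out.

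In the order of the mean responses in MDN, from the highest, the genes were DIP5, BAP2, AGP3, BAP3, TAT1, CAN1, LYP1, AGP1, TAT2 and GNP1. In YPD the order was AGP1, DIP5, AGP3, CAN1, LYP1, TAT2, BAP2, BAP3, GNP1 and TAT1. The 2-array ranges of neighbours did not overlap, but a range of 2 arrays is a weak measure of spread, and BAP3 has only 1 array in MDN. For 4 of 9 neighbouring pairs in MDN the gap between their arrays was smaller than the wider of their ranges: BAP2 with AGP3, AGP3 with BAP3, CAN1 with LYP1, and AGP1 with TAT2. For 5 of 9 in YPD it was smaller: AGP1 with DIP5, AGP3 with CAN1, TAT2 with BAP2, BAP2 with BAP3, and GNP1 with TAT1. The order within these pairs is therefore not settled beyond the spread of the arrays.

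**Figure D3:**
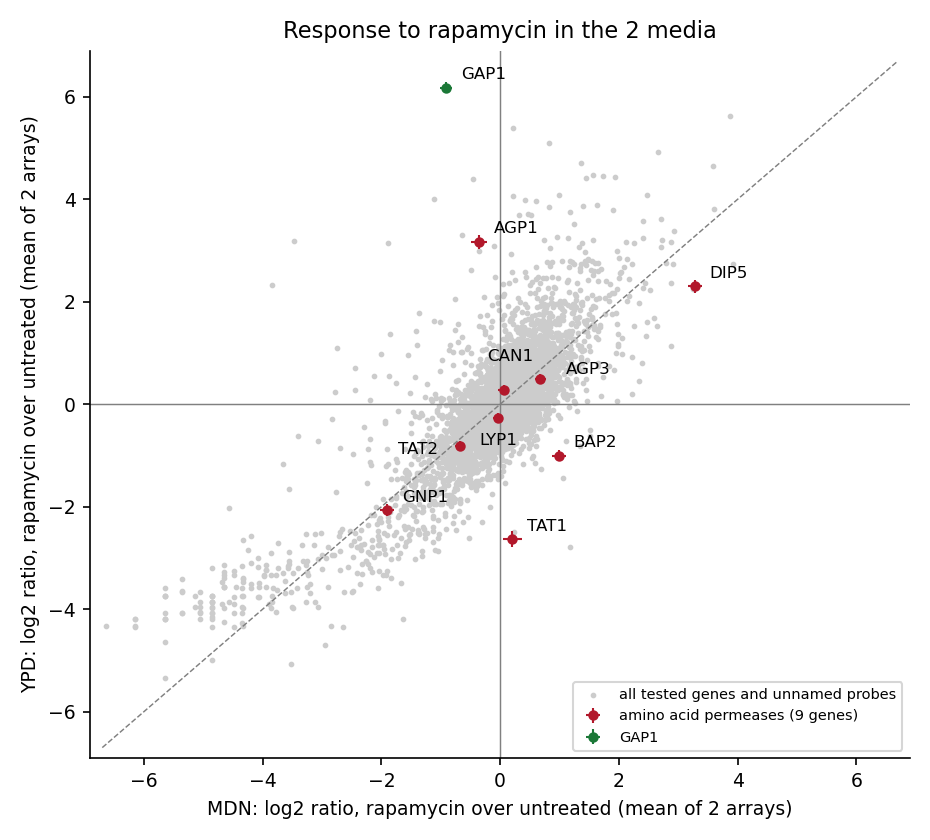
Mean log2 ratio of rapamycin over untreated in MDN (x axis) and in YPD (y axis), with standard errors, for 9 permease genes (red) and GAP1 (green) over all tested genes and unnamed probes (grey), with the line of equal response dashed. AGP1 at -0.35 and 3.17 lies far above the line, TAT1 at 0.21 and -2.63 and BAP2 at 0.99 and -1.0 lie below it, and GNP1 and TAT2 lie near it.

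The response to rapamycin differed between the media for 4 of the 9 permeases, tested as the difference MDN minus YPD in the same fit. Over all features 29.5% passed this test, 14.9% with a higher and 14.6% with a lower response in MDN. AGP1 responded less in MDN by 3.52 ± 0.19 on the log2 scale (difference -3.52, 95% interval -4.01 to -3.03, adjusted p = 0.00123), with a rise in YPD and no call in MDN. TAT1 had the opposite difference, 2.84 ± 0.22 (adjusted p = 0.00251), with a fall in YPD and 0.21 ± 0.16 in MDN. BAP2 differed by 2.00 ± 0.16 (adjusted p = 0.00250), with a 1.99-fold rise in MDN and a 2.01-fold fall in YPD. At equal array scale the differences of AGP1 and TAT1 were called at -2.66 and 2.13. DIP5 rose in both media and by 0.98 ± 0.17 more in MDN (adjusted p = 0.0182). BAP3 differed by 1.90 ± 0.17 in the fit that accepted 1 array per medium (adjusted p = 0.0110), with 1 MDN array behind it.

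For the other 5 permeases in the fit no difference between media was called. The 95% interval of the difference was -0.26 to 0.59 for GNP1, -0.17 to 0.46 for TAT2, -0.18 to 0.54 for AGP3, -0.56 to 0.12 for CAN1 and -0.09 to 0.53 for LYP1. Differences larger than 0.60 in either direction thus lay outside the interval of each of the 5 genes. The 4 calls need all 4 arrays. With any 1 array left out limma called none of the 9 permeases and none of the 5488 features, and 4 or 5 of the 9 had an unadjusted p under 0.05, always AGP1, BAP2, DIP5 and TAT1, joined by CAN1 without YPD array 2. The values themselves moved little, between -3.77 and -3.28 for AGP1, 2.53 and 3.15 for TAT1, 1.86 and 2.14 for BAP2, and 0.77 and 1.19 for DIP5.

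**Figure D4:**
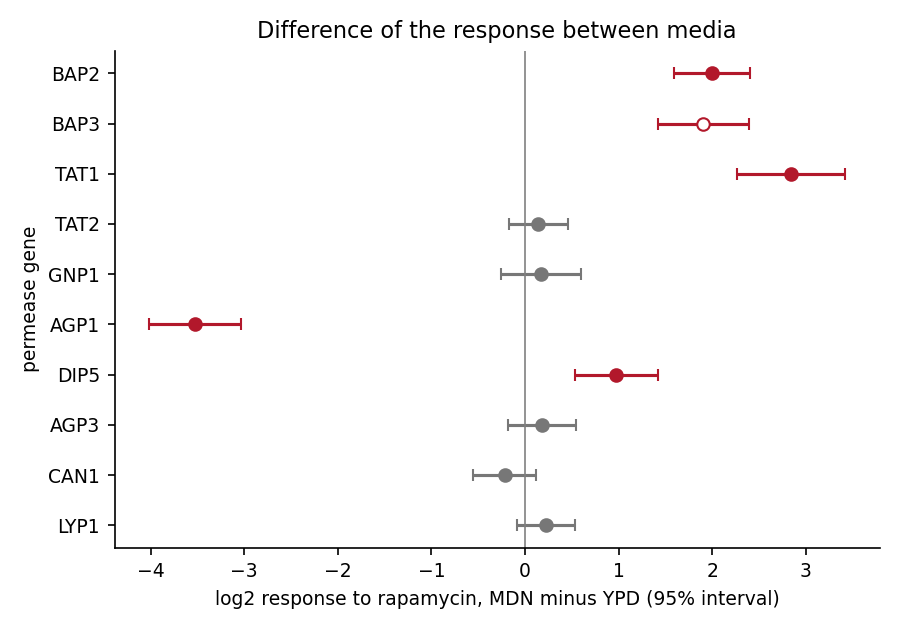
Difference of the log2 response to rapamycin, MDN minus YPD (x axis), with 95% intervals from limma for the 10 permease genes (rows), red where the adjusted p is under 0.05 and grey elsewhere. BAP3 (open point) comes from the fit that accepted 1 array per medium, and AGP1 at -3.52 and TAT1 at 2.84 mark the ends.

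Chaining the arrays places all conditions on a scale with untreated YPD at 0, on the assumption, which was not tested, that the MDN and the YPD samples of different arrays were alike. BAP2 was then at -3.07 in MDN with rapamycin, -4.06 in MDN, 0.26 in SCD and -1.0 in YPD with rapamycin. BAP3 was at -4.57, -5.06, 0.59 and -1.42 in the same order, and TAT1 at -3.85, -4.06, -1.0 and -2.63. BAP2 was lowest in MDN. BAP3 and TAT1 had their lowest values there too, but the step to MDN with rapamycin was not called for either (adjusted p = 0.0549 and 0.315). The level in MDN with rapamycin minus that in YPD with rapamycin was -2.06 for BAP2, -3.15 for BAP3 and -1.22 for TAT1. GNP1 and TAT2 were instead lowest in MDN with rapamycin, at -4.45 and -3.73, against -2.56 and -3.06 in MDN.

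AGP1 had its highest level in YPD with rapamycin, at 3.17, and low levels in MDN with and without the drug, at -2.14 and -1.79, which were not called different (adjusted p = 0.0805). Its level in MDN with rapamycin minus that in YPD with rapamycin was -5.31 on the log2 scale. DIP5 was raised above untreated YPD by the drug in both media, at 1.68 in MDN with rapamycin and 2.30 in YPD with rapamycin, against -1.60 in MDN. AGP3, CAN1 and LYP1 kept within 0.51 of untreated YPD in every condition. GAP1, the general amino acid permease held down by nitrogen catabolite repression, is a contrast in untreated MDN to the 7 permeases that were lower there. It was above untreated YPD, and those 7 were below. AGP3, CAN1 and LYP1 were near 0 in MDN, at -0.34, -0.18 and -0.32. GAP1 was at 5.84 in MDN with rapamycin, 6.75 in MDN, 0.75 in SCD and 6.18 in YPD with rapamycin. Like GAP1, AGP1 and DIP5 were raised in YPD with rapamycin, at 3.17 and 2.30.

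**Figure D5:**
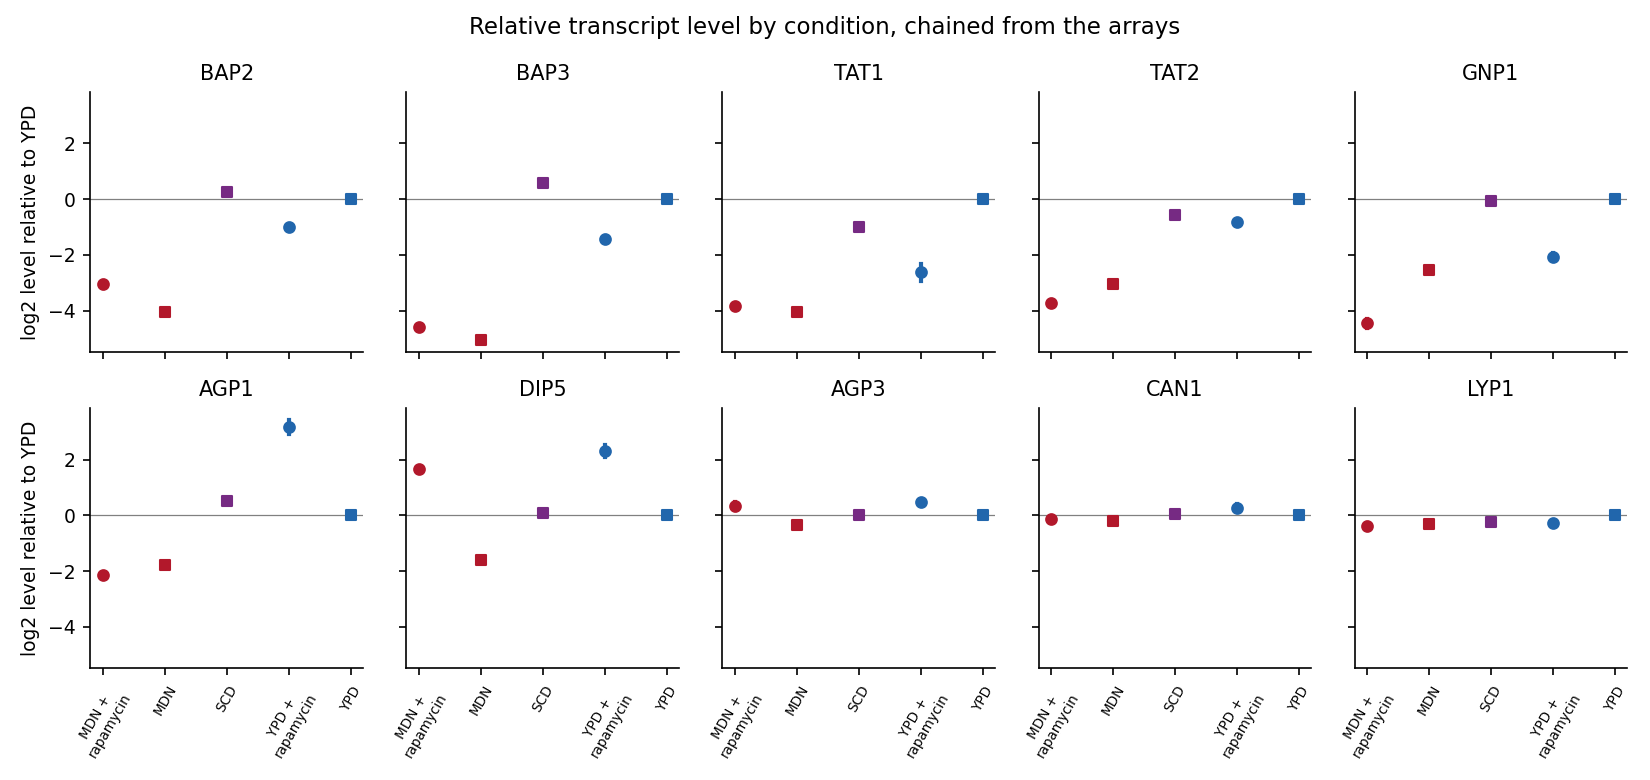
Log2 level relative to untreated YPD (y axis) of each permease gene in MDN with rapamycin, MDN, SCD, YPD with rapamycin and YPD (x axis), chained from the arrays. Circles are means and bars the range of the 2 rapamycin arrays, squares come from single arrays (YPD is 0 by definition), BAP3 in MDN with rapamycin rests on 1 array, and DIP5 is the gene at or above 1.68 in both drug-treated conditions.

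Among the 10, likeness was measured as the root mean square difference of log2 ratios over the arrays both genes have. CAN1 and LYP1 were the closest pair, at 0.34 over 6 arrays, and AGP3 was 0.40 from CAN1. Of the 7 genes lower in MDN, BAP2 and BAP3 were the closest pair, at 0.80 over 5 arrays, followed by TAT2 and GNP1 at 1.05. BAP2 and TAT1 are direct neighbours in the gene order of the current reference assembly, and they were 1.17 apart. The genes that flank this pair, TIP1 next to BAP2 and ALG14 next to TAT1, were at -0.09 and -0.47 in MDN over YPD, where BAP2 and TAT1 were each at -4.06. With rapamycin in YPD, ALG14 was at -0.47 and -0.14 and TIP1 at 0.12 and 0.21. With rapamycin in MDN, TIP1 was higher, at 1.73 and 1.66, as was BAP2 at 1.13 and 0.86. ALG14 was at 0.03 and 0.01 there. The proteins of BAP2 and BAP3, and of AGP1 and GNP1, are close relatives, and cross-hybridisation between their probes was not tested.

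Outside the 10, the named gene with the smallest such difference was VHR2 for BAP2 and for BAP3, but only at 1.25 and 1.92, so neither permease had a close match. TAT1 was nearest to HXT2, a glucose transporter gene, at 0.91, GNP1 to MUP1, the methionine permease gene, at 0.80, and AGP1 to ARO9, the aromatic aminotransferase gene, at 0.76. DIP5 was nearest to REE1 at 0.91 and TAT2 to FRE1, a ferric reductase gene, at 0.35. CAN1, LYP1 and AGP3 had near matches in RSM10, ROF1 and YJR096W, at 0.07, 0.08 and 0.08. Replicate arrays of these permeases differed by more, by 0.24 for CAN1 in YPD, 0.16 for LYP1 in MDN and 0.29 for AGP3 in MDN. Which gene came out as their nearest match therefore carries little weight.

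The sensor and signalling genes upstream of these permeases did not share their low ratios in MDN. Of 13 listed genes 13 had a value on the MDN over YPD array, none was at least 2-fold lower, and SSY5, the protease gene, was at least 2-fold higher, at 1.21. On that array 1.96% of all features were at least 2-fold lower and 3.93% higher. SSY1 and PTR3 were at 0.31 and 0.04, and the transcription factor genes STP1 and STP2 at 0.65 and 0.88. With rapamycin in MDN, 3 of 12 tested genes rose and 1 fell, with a median of 0.20. Over all features 30.8% rose and 23.3% fell in MDN, with a median of 0.06, so the share that rose was not above the background. STP2 was at 0.87 ± 0.08, ASI2, part of an inner nuclear membrane complex that keeps uncleaved Stp1 and Stp2 in check, at 0.61 ± 0.09, and PTR3 at 0.43 ± 0.10. YCK2, a casein kinase gene, fell by 0.74 ± 0.10. With rapamycin in YPD 6 of 12 rose and 1 fell, with a median of 0.26. Over all features 34.3% rose and 32.0% fell in YPD, with a median of 0.01. Those that rose included STP2 at 1.98 ± 0.08, ASI2 at 1.03 ± 0.09, SSY5 at 0.94 ± 0.20 and PTR3 at 0.76 ± 0.10. STP2 and STP1 had a lower response in MDN than in YPD, by differences of -1.11 ± 0.11 (adjusted p = 0.00464) and -0.70 ± 0.11 (adjusted p = 0.0147).

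PTR2, the di- and tripeptide transporter gene that the same sensor controls, was at -3.64 in MDN over YPD and -2.25 in MDN over SCD, in the range of the 7 low permeases. It rose with rapamycin in both media, at 1.13 and 1.38 in MDN (1.26 ± 0.11, adjusted p = 0.00107) and 1.10 and 1.39 in YPD (1.25 ± 0.11, adjusted p = 0.000614), and no difference between the media was called. CUP9, the gene of a repressor of PTR2, also rose in both, at 0.43 and 0.47 in MDN (adjusted p = 0.0448) and 0.33 and 0.86 in YPD (adjusted p = 0.0152).

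Other amino acid permeases also split by medium. Of 10 listed, 2 were at least 2-fold higher and 1 was at least 2-fold lower in MDN than in YPD. These were GAP1 at 6.75 and MUP3, a low-affinity methionine permease gene, at 1.67 against MUP1 at -1.43. The shares of all features were 3.93% higher and 1.96% lower. Against SCD, of 9 measured, GAP1 at 6.0 and PUT4 at 1.34 were at least 2-fold higher and MUP1 at -2.84 was lower. There MUP3 was at 0.53, and the shares of all features were 2.39% higher and 0.983% lower. MUP1 was thus at least 2-fold lower in MDN against both media, like the 7 permeases. With rapamycin in MDN 3 of 9 tested rose and 4 fell, where 30.8% of all features rose and 23.3% fell. In YPD 3 of 9 rose and 2 fell, where the shares were 34.3% and 32.0%, so the share that rose was near the background in both media. MUP1 fell in both media, at -2.26 ± 0.11 in MDN and -3.06 ± 0.11 in YPD, and so did MMP1, an S-methylmethionine permease gene, at -1.09 ± 0.10 in MDN and -1.46 ± 0.10 in YPD. UGA4, the permease gene for 4-aminobutyrate, rose in both, at 1.78 ± 0.10 in MDN and 2.42 ± 0.10 in YPD. HIP1, the histidine permease gene, fell in MDN, at -1.06 ± 0.10, and was at -0.14 ± 0.10 in YPD, with a difference of -0.92 ± 0.14 (adjusted p = 0.0124). GAP1 fell in MDN, at -0.91 ± 0.10, and rose in YPD, at 6.18 ± 0.10.

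Genes that act on permeases after transcription did not reach 2-fold between MDN and YPD. Of 16 listed genes for export from the endoplasmic reticulum, sorting and turnover, none did so, where 5.89% of all features did. For a list of this size that is near the background. Values in MDN over YPD ran from -0.43 for LST8 to 0.66 for ECM21. With rapamycin 8 of 14 tested rose and 1 fell in MDN, and 7 rose and 2 fell in YPD, with medians of 0.39 in MDN and 0.41 in YPD. Over all features 30.8% rose and 23.3% fell in MDN, 34.3% rose and 32.0% fell in YPD, and the medians were 0.06 and 0.01. LST8, a subunit of the TOR complexes, rose in both media, at 0.65 ± 0.08 in MDN and 0.75 ± 0.08 in YPD. LST7 rose in MDN, at 0.49 ± 0.11, and was not called in YPD. The arrestin-like gene ALY1 rose in both media, at 0.433 ± 0.095 in MDN and 0.752 ± 0.095 in YPD. NPR1, the kinase gene that stabilises several permeases and is controlled by TOR, was at 0.47 ± 0.09 in MDN and 1.09 ± 0.09 in YPD, a difference of -0.62 ± 0.12 (adjusted p = 0.0228), and ROD1, an arrestin-like adaptor gene for the ubiquitin ligase Rsp5, at 0.62 ± 0.10 and 0.89 ± 0.10. The related gene ALY2 had a lower response in MDN than in YPD, by a difference of -0.55 ± 0.12 (adjusted p = 0.0305). The export chaperone gene SHR3 did not pass in either medium, at -0.19 ± 0.15 and -0.30 ± 0.15.

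Transporters of the vacuole, the main amino acid store, included none with the low ratios in MDN of the 7 permeases. Of 10 measured, 4 were at least 2-fold higher and none was at least 2-fold lower in MDN than in YPD. The shares of all features were 3.93% higher and 1.96% lower. VBA1, an importer of basic amino acids into the vacuole, was at 1.93, AVT7 at 1.20, AVT4, an exporter, at 1.13 and RTC2, a PQ-loop transporter gene, at 1.08. With rapamycin 7 of 10 rose and 1 fell in MDN, and 6 rose and 2 fell in YPD, with medians of 0.56 and 1.33. Over all features the medians were 0.06 and 0.01, with 30.8% up and 23.3% down in MDN and 34.3% up and 32.0% down in YPD. VBA1 was at 2.44 ± 0.08 in MDN and 2.38 ± 0.08 in YPD. AVT6, an exporter of acidic amino acids, was at 1.17 ± 0.09 in MDN and 1.15 ± 0.09 in YPD. AVT7 was at 0.76 ± 0.12 in MDN and 2.09 ± 0.12 in YPD, RTC2 at 0.74 ± 0.17 and 1.96 ± 0.17, and AVT4 at 0.63 ± 0.08 and 1.90 ± 0.08. Their responses were lower in MDN than in YPD by differences of -1.32 for AVT7, -1.22 for RTC2 and -1.27 for AVT4. VBA2 differed by -1.80. Of 10 tested, 4 were called with a lower and 2 with a higher response in MDN. AVT3 and VBA3 were the 2 higher, by 0.535 and 0.537. Over all features 14.6% had a lower and 14.9% a higher response in MDN. Of 5 genes of the GATA system, GAT1 and DAL80 were at least 2-fold higher in MDN than in YPD, at 2.27 and 5.04, where 3.93% of all features were. GAT1, an activator, fell with rapamycin in MDN (-0.84 ± 0.09) and rose in YPD (1.16 ± 0.09), while DAL80, a repressor, rose in both, at 0.82 ± 0.09 and 3.85 ± 0.09. GZF3, another repressor, rose in YPD, at 1.31 ± 0.09. All 3 had a lower response in MDN than in YPD, by differences of -3.03 for DAL80, -2.0 for GAT1 and -1.48 for GZF3. Of the 4 tested genes of this system these were the ones called, 1 higher and 1 lower in MDN and 3 higher in YPD, beside all-feature shares of 30.8% and 23.3% in MDN and 34.3% higher in YPD.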

How the data were processed

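The table holds log2 ratios of the 2 channels of each array as the authors deposited them, for 6210 probes on 6 arrays. The scale was found from the values: raised to the power of 2, 100% are whole multiples of 0.01 (tolerance 0.0001). Background correction and normalization: not given in the sources used here. Probes were named from the platform annotation: 5595 had 1 symbol, 615 none and 0 several, and all 5595 matched the RefSeq gene table of assembly R64 by gene number. The 34 genes with several probes were averaged. No coordinates are printed, because the array's build is not given, and no sequences were used here.

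For the rapamycin arrays, R 4.3.3 and limma 3.58.1 gave moderated estimates (lmFit, then eBayes; a mean per medium, 2 residual and 3.00 prior degrees of freedom), two-sided, over 5488 genes and unnamed probes with all 4 values, and called at an adjusted p under 0.05. The test was checked on simulated data. Medium arrays have no test, and a 2-fold rule was used. Alternatives were median centring, equal array scale, 1 array per medium accepted, probes kept apart, a floor of 0.05 on ratios, a robust prior, each medium alone, a fold rule, a replicate block and each array left out; a crossed block was added after seeing the data. The members, lists and tests were chosen with earlier results of these data known. All 10 members were named, up to 4 called genes of each list per comparison with the largest absolute value, GAP1, and the gene most like each member; SSY1, STP1, CUP9, SHR3, flanking genes and list values on medium arrays were added by role after seeing the values. Figures used matplotlib 3.10.9 in Python 3.11.15.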

Additional observations from a re-analysis of the deposited data

Results flagged for a closer look

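The response to rapamycin differed between MDN and YPD for 4 permease genes, by limma's test of the difference MDN minus YPD. The differences were 2.00 for BAP2, 2.84 for TAT1, -3.52 for AGP1 and 0.98 for DIP5 on the log2 scale. None of the 4 had an adjusted p under 0.05 when any 1 of the 4 arrays was left out, while the sign stayed the same in each of those fits. BAP2 lay above 0 on both MDN arrays and below 0 on both YPD arrays.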

How the results depend on the processing

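Leaving out 1 array gave 2 to 6 permeases called with rapamycin in MDN (5 with all arrays), 6 to 7 in YPD (9 with all arrays), and 0 for the difference between media (4 with all arrays), a lone array being assumed to vary like the other medium. Over all features these fits called as few as 540 and 656 of 2968 in MDN without MDN array 1 or 2, 2388 of 3638 in YPD without YPD array 1, and 0 of 1620 for the difference, where fewer arrays leave less power. Requiring both arrays to be at least 2-fold off 0 left 2 permeases in MDN and 4 in YPD. The share of all features under this rule was not counted, so these counts have no background. SCD over YPD held 1 permease at 2-fold, 3 at equal array scale, 3 at 1.5-fold and 0 at a log2 ratio of 1.5. The share of all features was counted only for the first of these. The sign of 3 rapamycin values that were not called turned. LYP1 in MDN (-0.12 to 0.043 with an array left out) turned to 0.043 without MDN array 2. The differences of TAT2 and GNP1 turned to -0.033 and -0.278 at equal array scale, which shrank values in YPD more than in MDN. GNP1 went from -2.064 to -1.518 in YPD and from -1.898 to -1.795 in MDN. TAT2 went from -0.811 to -0.597 in YPD and from -0.669 to -0.629 in MDN. Under median centring, probes kept apart, the floor on low ratios and the robust prior every permease kept the sign of its rapamycin values, and the only call to change was that of AGP1 in MDN under median centring. The chained level of AGP3 in SCD went to -0.012 under median centring, against 0.018. The 7 permeases lower in MDN than in YPD and SCD numbered 7 under each of the 4 alternatives for each medium array. Array numbers may not pair the samples: deviations of same-numbered arrays correlated at -0.10 across 5488 genes. With the replicate block 5, 7 and 4 permeases were called in MDN, in YPD and for the difference. CAN1 and LYP1 did not pass in YPD (adjusted p = 0.0686 and 0.0787). With the crossed block, added after seeing the data, the counts were 5, 7 and 4. Over all 5488 features they were 2709, 3417 and 1185 with the replicate block, and 2830, 3532 and 1387 with the crossed block. Of single permease values under the alternatives, 296 kept their sign and side of the threshold, 38 lost and 5 gained a call. This tally counts some fits more than once. Values in MDN without either YPD array equal those of MDN fitted alone, and values in YPD without either MDN array equal those of YPD alone. The number of arrays and the 0.01 step of low ratios limit precision.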
